A study of Mus musculus with 16 samples.

Results

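Opposite-strand (os) transcripts are genes named for the gene they face: the symbol is that of a neighbour on the other DNA strand followed by os and, where there are several, a number. They were taken here as the rows of the deposited table whose symbol has this form, leaving out the 3 Nanos genes, with at least 20 counts summed over the 16 libraries. The form matched 312 symbols, of which 196 reached 20 counts, among 55359 genes in all; of the other 116, 35 had no count in any library. Just inside the limit were Banf2os and Unc45bos with 20 counts and Bloc1s6os with 21, and just outside it were Fam219aos with 19 and Nr6a1os and Srrm3os with 18. The symbols of 5 of the 196 (Micos10, Micos13, Mocos, Nrros and Selenos) match by their letters alone, since these are known protein genes that were not named for an opposite strand, which leaves 191.

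The libraries were RNA-seq of mouse brain tissue, which the series' own text calls hippocampus, from C57BL/6JNarl mice of both sexes. There were 4 groups of 4 libraries: non-stressed males, non-stressed females, chronic-stressed males and chronic-stressed females; the kind and length of the stress and the ages are not given in the sources used here. Each library was a pool with a pooling size of 3, except for the stressed males, where libraries 1 to 4 had pooling sizes of 2, 2, 1 and 2. The labels do not say whether the pools came from separate animals, so p-values measure the spread between these libraries, which may be technical. The question was how male and female hippocampus differ without and with chronic stress, and each os transcript was followed through it beside its sense gene.

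An antisense transcript is copied from the strand opposite to a gene and can share sequence with it, start from the same promoter region and run the other way, or lie within an intron. Some are long noncoding RNAs with known roles, such as Cyrano (Oip5os1), which pairs with microRNA miR-7 and leads to its destruction, and Cdr1os, whose locus gives rise to the circular RNA Cdr1as that carries many miR-7 sites. Others are small protein-coding genes that were named only for their position, and most have no known function.

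Of the 191 os transcripts, 189 had their sense gene in the table, 174 different genes in all, and each of the 189 lay on the opposite strand to it. In the table's coordinates the spans of 151 overlapped the sense gene's span, 26 did not overlap but started within 5 kb of its start, and 12 were placed otherwise. GENCODE M21 (build GRCm38), matched by Ensembl identifier, called 155 of the 196 antisense, 15 protein coding (10 of them os transcripts), 11 processed transcripts, 10 lincRNA and 3 bidirectional promoter transcripts. By its exons 123 of the 189 shared exonic bases with their sense gene, and 11 shared at least 50% of theirs.

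Promoter windows of RefSeq (build GRCm38.p6, 250 bases before to 50 after the start) were matched by symbol for 117 of the 191 os transcripts. For each symbol only the window furthest 5' was kept, which need not lie at the start given in the deposited table. The 4 windows printed here contrast os transcripts with at most 1 count per sex in the stressed libraries (Prkag2os1 and Alkbh3os1) with one that rose (Oip5os1) and with one that starts beside its sense gene's start and was not called (Prdm16os). They were picked with these changes known and are examples only. Capitals mark each CG, the pair of bases that is methylated in mammals and that is dense at CpG-island promoters; CG reads the same on both strands.
Prkag2os1, chr5:24902319-24902618, plus strand: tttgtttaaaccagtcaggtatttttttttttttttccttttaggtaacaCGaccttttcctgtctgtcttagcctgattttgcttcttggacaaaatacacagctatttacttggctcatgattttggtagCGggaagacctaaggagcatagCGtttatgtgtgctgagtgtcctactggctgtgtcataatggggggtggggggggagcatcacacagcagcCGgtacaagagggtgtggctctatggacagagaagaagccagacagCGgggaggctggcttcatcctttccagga
Alkbh3os1, chr2:93979784-93980083, plus strand: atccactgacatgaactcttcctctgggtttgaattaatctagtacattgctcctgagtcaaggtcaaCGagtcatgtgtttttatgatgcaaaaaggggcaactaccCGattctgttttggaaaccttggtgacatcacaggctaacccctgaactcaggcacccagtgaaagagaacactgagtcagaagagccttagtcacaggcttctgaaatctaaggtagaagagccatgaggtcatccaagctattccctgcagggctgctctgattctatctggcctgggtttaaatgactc
Oip5os1, chr2:119594046-119594345, plus strand: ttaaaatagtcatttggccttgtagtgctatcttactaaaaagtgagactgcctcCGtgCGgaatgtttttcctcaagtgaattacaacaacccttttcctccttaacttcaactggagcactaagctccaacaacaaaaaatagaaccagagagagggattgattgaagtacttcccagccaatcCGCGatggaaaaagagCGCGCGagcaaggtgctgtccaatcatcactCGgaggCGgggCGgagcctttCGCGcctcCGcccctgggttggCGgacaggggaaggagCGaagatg
Prdm16os, chr4:154637330-154637629, plus strand: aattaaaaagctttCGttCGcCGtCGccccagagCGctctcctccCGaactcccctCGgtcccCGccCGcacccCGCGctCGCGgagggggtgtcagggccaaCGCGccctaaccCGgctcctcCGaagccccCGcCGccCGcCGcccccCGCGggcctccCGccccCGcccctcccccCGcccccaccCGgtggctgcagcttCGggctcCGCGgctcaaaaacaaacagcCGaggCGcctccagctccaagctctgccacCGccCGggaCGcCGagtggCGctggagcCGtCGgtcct
The windows of Prkag2os1 and Alkbh3os1 held 5 and 2 CG, that of Oip5os1 held 15 and that of Prdm16os 39. Windows not printed also went the other way: Uchl1os, which fell over 4-fold in both sexes, held 29 CG, and Hectd2os, which was not called, held 0. A count of at least 15 CG was found in 35.2% of the 27025 RefSeq windows kept, 1 per symbol, and in 40.2% of the 117 os windows. It was found in 66.7% of the 18 windows of os transcripts that start within 5 kb of the sense start. Of the 20 windows of os transcripts that fell over 4-fold in both sexes (described further on), 10% had it. It was likewise found in 9.68% of the 31 windows of os transcripts whose exonic bases all lie within the sense gene's span, whatever their change. Of the 66 windows of os transcripts not called in either sex, 39.4% had it. The motif TATAAA, searched on the window's own strand and its complement, was in 14.2% of all windows and in 8.55% of the os windows. These are counts of letters in windows of equal length and were not tested.

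Library totals ran from 15.2 M to 32.5 M counts (M, 1e+06). The 9 marker genes of hippocampal fields were all detected, and their summed CPM (counts per 1e+06 counts of the library) was 885.7 to 1029 without and 1065 to 1167 with stress in males, and 904.1 to 1010.4 without and 1105 to 1147 with stress in females, while the 3 striatal markers summed to at most 14.3 CPM. Choroid plexus markers were also present, at 1461 to 7851 summed CPM over the 16 libraries, with the 4 groups overlapping, and none of the 4 passed the test for stress. Of the 9 field markers 4 rose and 1 fell in males, and 5 rose and 3 fell in females. Of 4 microglial markers 2 fell in males (summed CPM 141 to 166 without and 122 to 131 with stress) and 1 in females (136 to 182 and 122 to 163), and of 6 neuronal markers 1 rose in males and 2 in females. Of 3 endothelial markers 1 rose and 1 fell in males (summed CPM 35.6 to 42.5 without and 30.4 to 40.1 with stress) and 2 fell in females (41.8 to 57.2 and 34.2 to 39.5), and of 2 ependymal markers 1 fell in each sex (26.5 to 40.7 and 15.97 to 33.4 in males, 16.6 to 41.4 and 18.3 to 31.9 in females). In females 1 of 4 astrocyte markers rose, and 1 of 4 oligodendrocyte, 1 of 3 thalamic and 1 of 4 blood markers fell. The part of these markers in the results was not tested. Non-stressed female libraries 1 and 4 differed from libraries 2 and 3 of that group in many of the values given here, so the counts are repeated without both. As a sum the 196 members held 0.118% ± 0.00393 of all counts without and 0.110% ± 0.00427 with stress in males, and 0.121% ± 0.00602 without and 0.112% ± 0.00348 with stress in females (SD, n = 4 each). This sum includes the 5 letter matches. Without them the 191 os transcripts summed to 950 to 1014 CPM without and 933 to 1013 CPM with stress in males. In females they summed to 952 to 1021 CPM without and 948 to 1033 CPM with stress, so the groups overlapped in each sex.

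Under chronic stress the os transcripts changed mostly downward, in both sexes. In males 59 of the 196 fell, which is 30.1%, and 7 rose, at an adjusted p under 0.05 in edgeR's quasi-likelihood test with Benjamini-Hochberg adjustment over all 23769 genes tested; over all genes, 16.7% fell and 15.6% rose. In females 68 fell, which is 34.7%, and 12 rose, against 21.3% and 18.4% over all genes. Calls in both sexes with the same sign were made for 53 that fell and 5 that rose, 27% and 2.55% of the 196, where all genes gave 14% and 12.9%. No os transcript was called upward in one sex and downward in the other. The median log2 fold change of the 196 was -0.48 in males and -0.48 in females, beside -0.03 in each sex for all genes. It shrank to -0.22 in males and -0.13 in females with the length trend of each library removed, and to -0.11 in each sex in limma on log2(FPKM + 1). Without non-stressed female libraries 1 and 4, 55 fell and 8 rose in females, against 13% and 12.5% over all genes, and the female median was -0.32. The sources used here do not say whether libraries kept the strand, whether the counting used it, or whether both were alike in stressed and non-stressed libraries; a difference of this kind between the conditions cannot be told apart from stress in any fall given here.

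The members were chosen by a sum over all 16 libraries, and that limit bears on the counts. In the 8 non-stressed libraries alone 34 members reached 20 counts that did not reach it in the 8 stressed ones, 14 reached it in the stressed libraries alone, 130 in both and 18 in neither alone. The median member had 158 counts over the 16 libraries, and the highest had 134235. Whether the RNA per cell or the number of cells that make it changed cannot be told apart in these bulk libraries.

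In the CPM of single libraries, with no model, ranges could be set side by side. In males all 4 stressed libraries lay below all 4 non-stressed ones for 65 of the 196, and above for 7, where all genes gave 21.1% and 16.7%. In females these counts were 50 and 13, where all genes gave 18.5% and 16.1%. In both sexes at once 40 members were lower and 4 were higher without overlap, where all genes gave 13.9% and 12%.

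A fall over 4-fold in each sex was seen for 36 os transcripts, 18.4% of the 196, while 3.91% of all genes tested did so. Of these 36, 34 overlapped the span of their sense gene, beside 151 of all 189 with a sense gene in the table. Exonic bases were shared with it by 32 of the 36, beside 123 of the 189. The 36 faced 33 different genes. Together they held 66.8, 75.0, 78.0 and 86.5 CPM in non-stressed male libraries 1 to 4 and 47.3, 78.2, 87.7 and 30.8 CPM in non-stressed female libraries 1 to 4. In the stressed libraries their sum was 1.91 to 3.10 CPM in males and 2.30 to 3.07 CPM in females, and the groups did not overlap. For 11 of them the 8 stressed libraries held no count at all. Their own totals over the 16 libraries ran from 25 to 4398 counts. Most of the 36 had under 20 counts over the 8 stressed libraries. These met the limit of 20 through the non-stressed libraries, where they are high, and all genes tested met the same limit. Since the 36 were picked by the size of the fall, the figures, with the 18.4% beside 3.91%, describe them and test nothing.

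**Figure D1:**
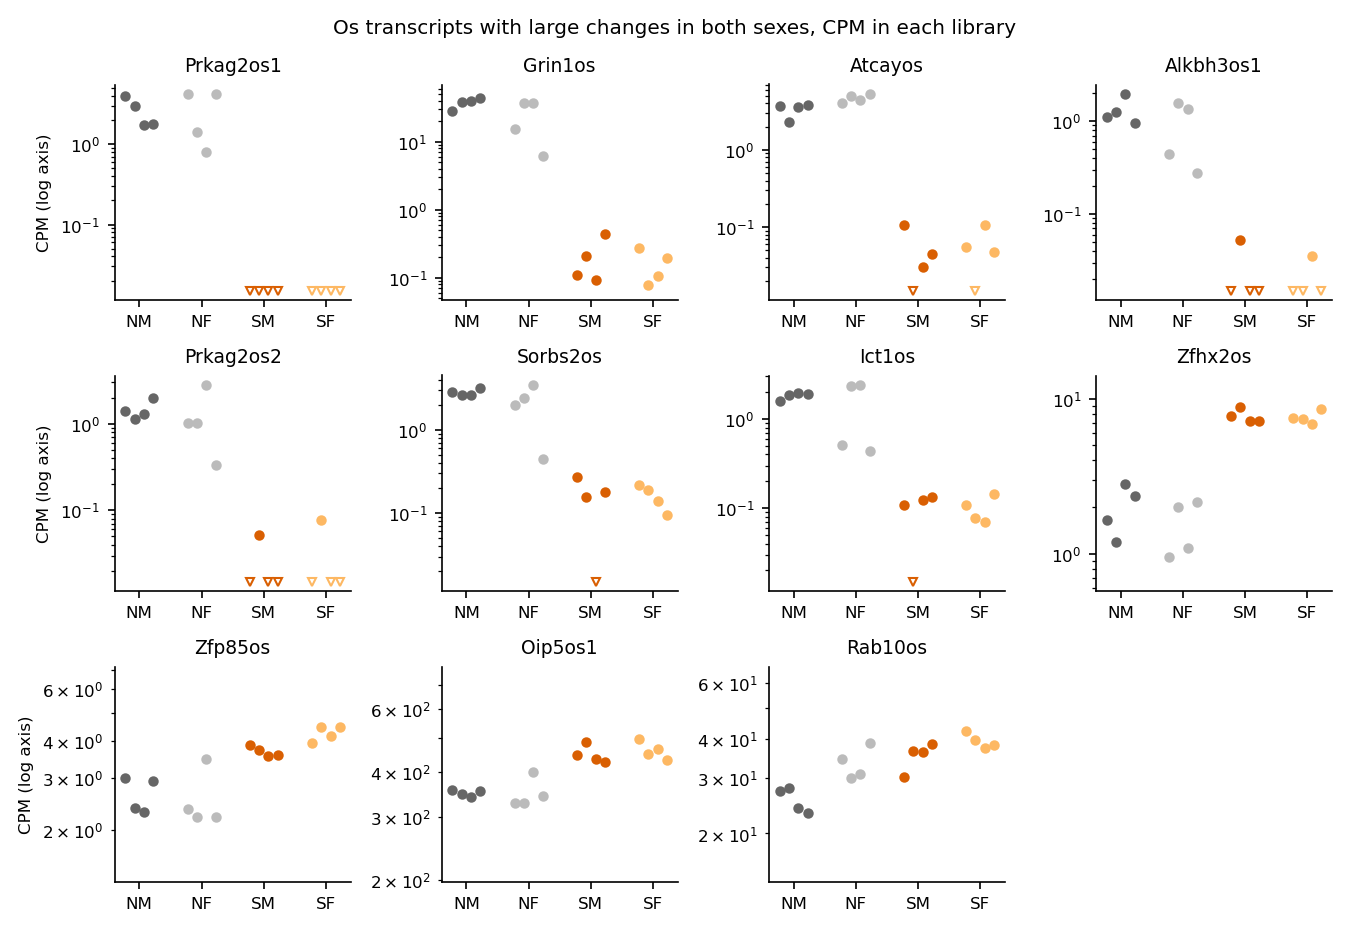
CPM (log axis) in each of the 16 libraries for the os transcripts named by rule as the largest falls (first 7 panels) and rises (last 4 panels) called in both sexes; NM and NF are non-stressed males and females, SM and SF stressed males and females, and open triangles are libraries with no count. For Grin1os the 8 stressed libraries lie between 0.0767 and 0.443 CPM and the 8 non-stressed ones between 6.13 and 43.4 CPM.

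Grin1os faces Grin1, the gene of the obligate GluN1 subunit of NMDA receptors, and was the most abundant of the 36 (table coordinates chromosome 2, 25181232 to 25188937, plus strand; 45.2% of its exonic bases are also exonic in Grin1). It had 28.0, 38.1, 40.3 and 43.4 CPM in non-stressed male libraries 1 to 4 and 15.5, 36.7, 36.8 and 6.13 CPM in non-stressed female libraries 1 to 4. In the stressed libraries 1 to 4 it had 0.107, 0.208, 0.0923 and 0.443 CPM in males and 0.274, 0.0767, 0.105 and 0.192 CPM in females. All 8 stressed libraries were far below the lowest non-stressed library, which was female library 4. Its log2 fold change was -7.43 ± 0.58 (SE) in males (edgeR adjusted p = 3.69e-08) and -7.23 ± 0.61 in females (adjusted p = 1e-07). Grin1 itself rose, by 0.54 ± 0.13 on the log2 scale in males (edgeR adjusted p = 0.00323) and by 0.74 ± 0.13 in females (adjusted p = 0.000233), with no overlap of the groups in either sex. Per length, in the authors' FPKM (counts per kb of exonic length and 1e+06 counts), Grin1os stood at 12.96 and 8.22 in non-stressed males and females beside 41.4 and 34.3 for Grin1; under stress it stood at 0.0725 and 0.0575 beside 58.8 and 56.3.

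Prkag2, which codes for a regulatory gamma subunit of AMP-activated protein kinase, has 2 os members that both lie within its span. Prkag2os1 (chromosome 5, 25107567 to 25111848, plus strand), whose promoter window with few CG is printed above, had 178 counts over the non-stressed male libraries and 184 over the non-stressed female ones, and no count in any stressed library. Counting 3 counts per group as the least that a count of 0 can exclude, it was at least 80.2-fold lower in stressed males and at least 79.3-fold lower in stressed females. In single libraries it had 4.04, 3.04, 1.74 and 1.80 CPM in non-stressed males and 4.18, 1.41, 0.794 and 4.196 CPM in non-stressed females. The female libraries 1 and 4, low for Grin1os, were the high ones here. Prkag2os2 (chromosome 5, 25078542 to 25080932, plus strand) had 100 and 97 counts in the non-stressed males and females and 1 and 2 counts in the stressed ones, a ratio of 135 (exact 95% interval 23.7 to 5389) in males and 62.7 (16.9 to 525.1) in females. Floors and intervals cover counting error only. Prkag2 was not called, with log2 fold changes of 0.13 ± 0.07 in males (edgeR adjusted p = 0.151) and 0.05 ± 0.07 in females (adjusted p = 0.574).

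Atcayos faces Atcay, which codes for caytaxin, a neuronal protein mutated in Cayman ataxia. In males it had 2.31 to 3.77 CPM without and at most 0.107 CPM with stress, and in females 3.99 to 5.24 CPM without and at most 0.105 CPM with stress. It fell by 6.05 on the log2 scale in males (SE 0.41, edgeR adjusted p = 5.88e-09) and by 6.28 in females (SE 0.39, adjusted p = 1.43e-09), with every stressed library below every non-stressed one. Alkbh3os1 faces Alkbh3, a demethylase of alkylated nucleic acids, and its window is also printed above. It had 0.956 to 1.95 CPM in non-stressed males and 0.276 to 1.57 CPM in non-stressed females, and 1 count in all in the stressed libraries of each sex, a ratio of 124 (exact 95% interval 21.8 to 4962) in males and 87.9 (15.3 to 3522) in females.

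Sorbs2os, opposite the gene of an actin-associated adaptor protein, had 2.62 to 3.15 CPM in non-stressed males, 0.442 to 3.43 in non-stressed females, and 0 to 0.269 and 0.0960 to 0.219 CPM in stressed males and females, without overlap. Its log2 fold change was -4.30 ± 0.56 in males (edgeR adjusted p = 1.83e-05) and -3.62 ± 0.55 in females (adjusted p = 7.84e-05). Ict1os keeps an older name of its sense gene, Mrpl58, which codes for a peptidyl-tRNA hydrolase of the mitochondrial ribosome. Ict1os fell by 4.13 on the log2 scale in males (SE 0.59, edgeR adjusted p = 4.4e-05) and by 3.79 in females (SE 0.60, adjusted p = 0.000108). Here the sense gene fell too, by 0.42 in males (SE 0.10, edgeR adjusted p = 0.00251) and by 0.53 in females (SE 0.10, adjusted p = 0.000348).

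Further os transcripts of the 36, chosen after their values were seen for the genes they face, include Uchl1os, Kdm6bos and Srrm4os. Uchl1os, reported in mouse to raise translation of the ubiquitin hydrolase UCHL1, fell by 2.44 (SE 0.53, edgeR adjusted p = 0.00191) in males and by 2.11 (SE 0.51, adjusted p = 0.00328) in females on the log2 scale. Kdm6bos, opposite a histone H3 lysine demethylase gene, had 54 and 72 counts over the non-stressed males and females and 0 and 1 over the stressed ones. Srrm4os, opposite the gene of a neuronal splicing factor, had 42 and 50 counts against 2 and 7, and its female groups overlapped because 1 non-stressed library had none. Srrm4 rose by 0.63 ± 0.15 in males (edgeR adjusted p = 0.00474) and by 0.67 ± 0.15 in females (adjusted p = 0.00233).

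Several of the falling genes are annotated as protein coding. Of the 10 protein-coding os transcripts 6 fell in males and 7 in females, and none rose; of the 16597 other protein-coding genes 15.3% and 21.2% fell. Those named in this paragraph were chosen after their values were seen. Cdiptos fell by 2.99 (SE 0.35) and by 2.66 (SE 0.32) in males and females, and Myocos, with 39 and 34 counts in the non-stressed groups, had none in the stressed ones. Cebpzos and Slc7a6os, which were better expressed, fell by less: Cebpzos by 0.75 (SE 0.18) and by 0.95 (SE 0.18), and Slc7a6os, related to the yeast factor Iwr1 that serves nuclear import of RNA polymerase II, by 0.42 (SE 0.09) and by 0.40 (SE 0.09). Slc7a6 rose by 0.25 ± 0.08 and by 0.31 ± 0.08 (edgeR adjusted p = 0.0232 and 0.00476). Wdr83os, an endoplasmic reticulum membrane protein gene, was not called, at -0.00 ± 0.16 in males and -0.31 ± 0.16 in females (edgeR adjusted p = 0.985 and 0.139), although 52.3% of its exonic bases are also exonic in Wdr83.

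The os transcripts that rose in both sexes numbered 5. Zfhx2os, opposite the zinc-finger homeobox gene Zfhx2 (chromosome 14, 55291326 to 55313330, plus strand; 73.1% of its exonic bases shared), had 1.65, 1.19, 2.82 and 2.36 CPM in non-stressed male libraries 1 to 4 and 0.951, 2.00, 1.09 and 2.15 CPM in non-stressed female ones. It had 7.74, 8.84, 7.20 and 7.14 CPM in stressed male libraries 1 to 4 and 7.57, 7.36, 6.92 and 8.54 CPM in stressed female ones. Every stressed library was above every non-stressed one, with a log2 fold change of 1.96 ± 0.23 in males (edgeR adjusted p = 6.26e-06) and 2.31 ± 0.24 in females (adjusted p = 1.3e-06). Zfhx2 was not called in males, at 0.30 ± 0.22 (edgeR adjusted p = 0.331), and rose in females by 0.60 ± 0.23 (adjusted p = 0.0405).

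Oip5os1 (Cyrano; chromosome 2, 119424778 to 119437983, plus strand) was the most abundant member. In males it had 342 to 357 CPM without and 427 to 487 CPM with stress, and in females 328 to 402 CPM without and 434 to 494 CPM with stress, without overlap between conditions in either sex. It rose by 0.40 ± 0.08 on the log2 scale in males (edgeR adjusted p = 0.00084) and by 0.42 ± 0.08 in females (adjusted p = 0.000469). Its sense gene Oip5, which codes for a protein of centromere assembly, had a mean FPKM of 0.365 to 0.562 over the 4 groups and was not called. With the length trend of each library removed the rise of Oip5os1 was 0.11 and 0.10 and no longer passed. Zfp85os, opposite a zinc-finger repressor gene, rose by 0.51 ± 0.16 in males (edgeR adjusted p = 0.0225) and by 0.75 ± 0.16 in females (adjusted p = 0.00145), and Zfp85 was not called.

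Rab10os faces the gene of Rab10, a small GTPase of membrane traffic. It had 23.3 to 27.8 CPM in non-stressed males against 30.3 to 38.5 in stressed males, and 29.9 to 38.8 CPM in non-stressed females against 37.3 to 42.4 in stressed females, where the groups overlapped. The rise was 0.51 ± 0.10 in males (edgeR adjusted p = 0.000867) and 0.26 ± 0.10 in females (adjusted p = 0.048); the female call was lost in DESeq2 (0.25) and under most other settings. Chn1os1, the other that rose in both sexes, was below the level for naming: it had 5 and 1 counts in the non-stressed males and females against 35 and 26 in the stressed ones.

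Chn1os1 has a sister that moved the other way. Both face Chn1, which codes for the Rac regulator chimaerin 1, and 83.8% of the exonic bases of Chn1os1 are also exonic in Chn1, against 7.22% for Chn1os3. Chn1os3 had 5.54 to 7.59 CPM in non-stressed males and 3.20 to 7.70 CPM in non-stressed females, against 0.488 to 0.860 and 0.219 to 0.844 CPM in stressed males and females. Its log2 fold change was -3.31 ± 0.29 in males (edgeR adjusted p = 2e-07) and -3.29 ± 0.30 in females (adjusted p = 2.64e-07), while Chn1 was not called, at 0.11 ± 0.07 and 0.14 ± 0.07.

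In all, 14 sense genes had more than 1 os member, 29 members together. In 4 of these families (Prkag2, Rapgef4, Ube4b and Kcnmb4) both members fell in both sexes, though by different amounts: Kcnmb4os1 by 2.70 and 3.03 and Kcnmb4os2 by 1.05 and 1.24 on the log2 scale in males and females. Members of a family also differed in their calls. Pcsk2os2 fell by 2.15 in males and by 3.16 in females, while Pcsk2os1, with more counts (1275 against 96 in all), was at 0.04 and -0.20 (edgeR adjusted p = 0.889 and 0.435). The symbol Tmem147os names 2 rows of the table: one with 637 counts fell by 0.94 and 0.71, and one with 4760 counts was at -0.22 and 0.18 and was not called. Members that share a sense gene share their locus and are not independent of each other.

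Among the 6 most abundant members were also Cdr1os and Cep83os. Cdr1os (chromosome X) had 81.8 to 113 CPM without and 99.1 to 137 CPM with stress in males, and 80.5 to 115 CPM without and 103 to 127 CPM with stress in females, overlapping in both sexes. Its log2 fold change was 0.32 ± 0.12 in males (edgeR adjusted p = 0.0465) and 0.29 ± 0.12 in females (adjusted p = 0.0605), and with the length trend removed it turned to -0.22 and -0.28. The linear Cdr1 row was at or near 0 in all groups, so its pair share says nothing of a change, and circular RNA was not counted separately. Cep83os, which starts beside the gene of the centriole appendage protein Cep83, had 35.7 to 42.8 CPM over all 16 libraries and was not called.

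Of the members that are no os transcripts, Micos10 and Micos13, subunits of the mitochondrial contact site complex, fell: Micos10 by 0.79 (SE 0.16) in males and by 1.09 (SE 0.16) in females, Micos13 by 0.67 (SE 0.09) and by 0.77 (SE 0.09). Selenos, a selenoprotein of endoplasmic reticulum degradation, was at -0.31 ± 0.14 in males (edgeR adjusted p = 0.0899) and fell in females by 0.48 (SE 0.14, adjusted p = 0.00961). Without these letter matches 57 of 191 fell in males and 65 in females.

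A list of os transcripts beside regulators of brain development and neurons held 10 members and left out others of the kind. One left out, named after its values were seen, is Dmrta2os, beside the gene of a transcription factor of cortical development, which fell by 1.57 on the log2 scale in each sex (edgeR adjusted p = 0.00355 in males and 0.00189 in females). Of the 10 listed, Zfhx2os rose as described and Zeb2os fell in females, from 3.73 to 7.12 CPM to 2.83 to 3.81 CPM (log2 fold change -0.69 ± 0.20, edgeR adjusted p = 0.0105), with overlap; in males it was at -0.49 ± 0.20 (adjusted p = 0.0705). The remaining 8 of the list were not called in either sex. Dlx6os1, also known as Evf2, a cofactor of Dlx factors in interneuron development, had 13.4 to 19.97 CPM over the 16 libraries and log2 fold changes of 0.15 ± 0.11 in males and -0.14 ± 0.11 in females (edgeR adjusted p = 0.323 and 0.341). Emx2os had 9.14 to 13.3 CPM and was at 0.06 ± 0.14 and 0.15 ± 0.14, while Emx2, a homeobox gene of cortex and hippocampus, fell in males by 0.49 (SE 0.12, edgeR adjusted p = 0.00352) and was at -0.21 ± 0.12 in females (adjusted p = 0.161). Six3os1 spread from 0.994 to 6.61 CPM between libraries of all groups, and Pax6os1, Otx2os1, Lhx1os, Vax2os and Arhgap33os averaged about 1 CPM or less in each group. Not being called does not show that these were unchanged. Lhx1os was at -1.14 ± 0.48 in males and -1.07 ± 0.50 in females (edgeR adjusted p = 0.0800 and 0.0990). Vax2os and Arhgap33os had 30 and 22 counts in all. Arhgap33os was at 1.09 ± 0.92 in males and 0.80 ± 0.95 in females, and changes of that size were not detectable at this depth.

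**Figure D2:**
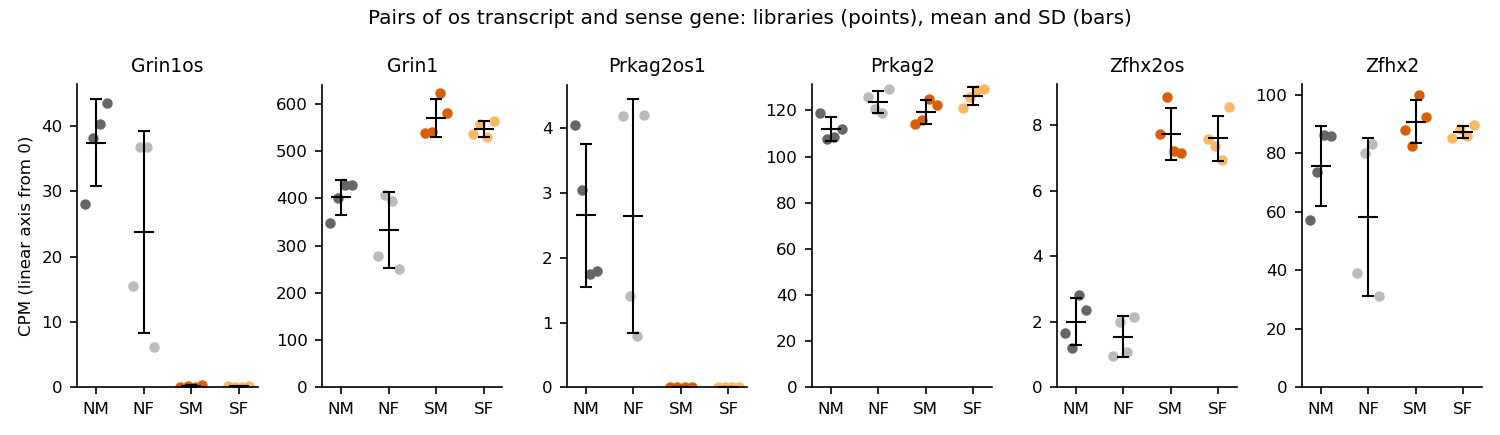
CPM (linear axis from 0) of 3 os transcripts and their sense genes in each library (points), with the group mean and SD (bars, n = 4); group letters as above. Grin1os and Prkag2os1 lie at or near 0 in the stressed groups while Grin1 and Prkag2 do not, and Zfhx2os is higher in all stressed libraries.

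Among the sense genes rises outnumbered falls, as they did among all genes over 3 kb of exonic length. Of the 171 sense genes tested, 41 rose and 14 fell in males, which is 24% and 8.19%, and 49 rose and 22 fell in females, which is 28.7% and 12.9%, with medians of 0.11 and 0.13 on the log2 scale. Over all genes 15.6% rose and 16.7% fell in males and 18.4% rose and 21.3% fell in females. Over all 12589 genes over 3 kb, a length that 133 of the 171 reach, 23.6% rose and 9.56% fell in males and 28.1% rose and 13.1% fell in females, with medians of 0.11 and 0.12. Among those 133, 29.3% rose and 6.02% fell in males and 35.3% rose and 6.02% fell in females, with medians of 0.16 and 0.20; the difference from all genes of that length was not tested. For the 33 sense genes of the 36 large falls the medians were 0.15 in males and 0.20 in females; 9 rose and 1 fell in males, which is 27.3% and 3.03%, and 12 rose and 4 fell in females, which is 36.4% and 12.1%. Over 186 pairs with both members tested, 23 had both called in males: in 18 the os transcript fell and the sense gene rose, in 4 both fell, in 1 the os transcript rose and the sense gene fell, and in 0 both rose. In females 36 pairs had both called, and these counts were 25, 9, 1 and 1. The 186 pairs hold 171 sense genes, so some sense genes were counted more than once. Falls of os members (30.1% in males, 34.7% in females) and rises of sense genes (24% and 28.7%) were each common. How many such pairs would arise from these shares alone was not worked out. Across the 186 pairs the changes of os transcript and sense gene had a Spearman correlation of -0.18 in males and -0.14 in females. This is a description over pairs that share libraries, scaling and in some cases the sense gene.

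**Figure D3:**
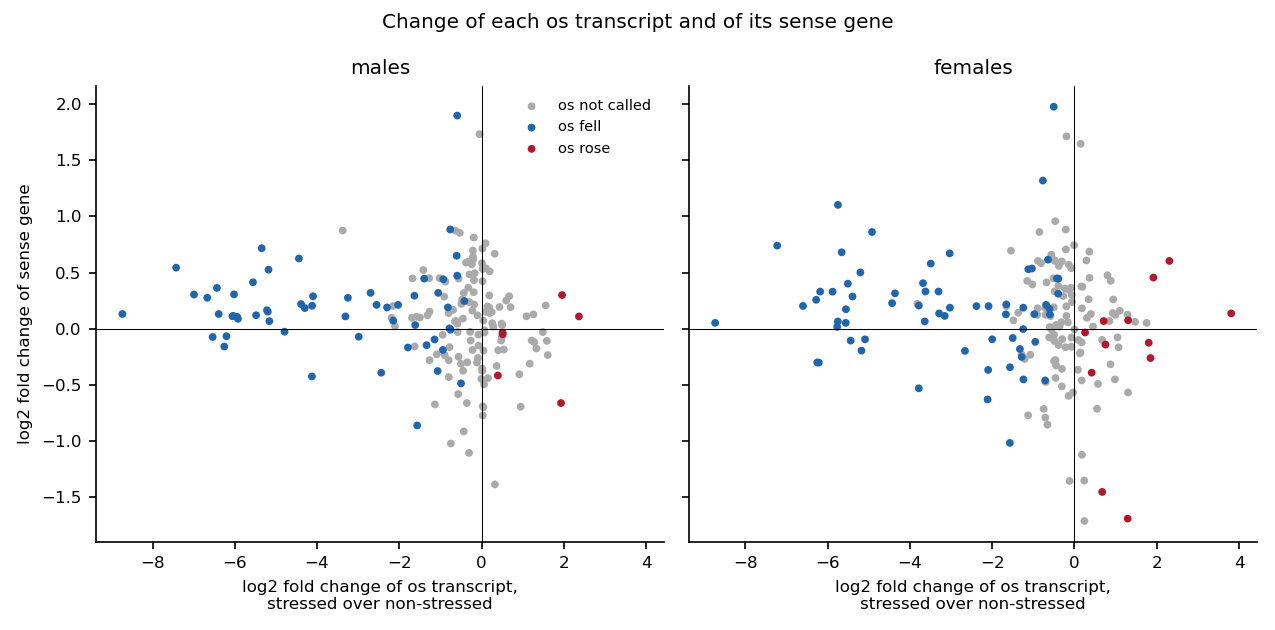
Log2 fold change under stress of each os transcript (horizontal axis) and of its sense gene (vertical axis) for 186 pairs, in males (left) and females (right), coloured by the call of the os transcript. The lowest os transcript lies at -8.73 in males and -8.74 in females.

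The genes Ccpg1os and Ccpg1, named after their values were seen, start within 5 kb of each other and do not overlap. Ccpg1os fell by 0.59 (SE 0.18) in males (edgeR adjusted p = 0.0199) and by 0.51 (SE 0.18) in females (adjusted p = 0.0348). Ccpg1, a receptor for autophagy of the endoplasmic reticulum, rose by 1.90 ± 0.20 and by 1.98 ± 0.20 (edgeR adjusted p = 1.32e-06 and 8.14e-07).

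Within a pair, the share of counts held by the os transcript needs no scaling between libraries. The median over 189 pairs of the mean share was 2.66% in non-stressed males and 3.03% in non-stressed females, against 1.40% and 1.35% in stressed males and females. For the large falls the median share was 1.70% and 1.72% in the non-stressed groups and 0.0252% and 0.0266% in the stressed ones. Grin1os held 8.47% ± 0.741 and 6.11% ± 2.89 of its pair's counts in non-stressed males and females and 0.0374% ± 0.0279 and 0.0297% ± 0.0166 under stress (SD, n = 4 each). Zfhx2os went from 2.56% ± 0.680 and 3.14% ± 2.28 to 7.91% ± 1.30 and 8.01% ± 0.542. Os transcripts held over 50% of their pair's counts in 18 and 20 pairs in the non-stressed males and females and in 18 and 17 pairs in the stressed ones. Since exonic lengths differ, a share of counts is no ratio of molecules.

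**Figure D4:**
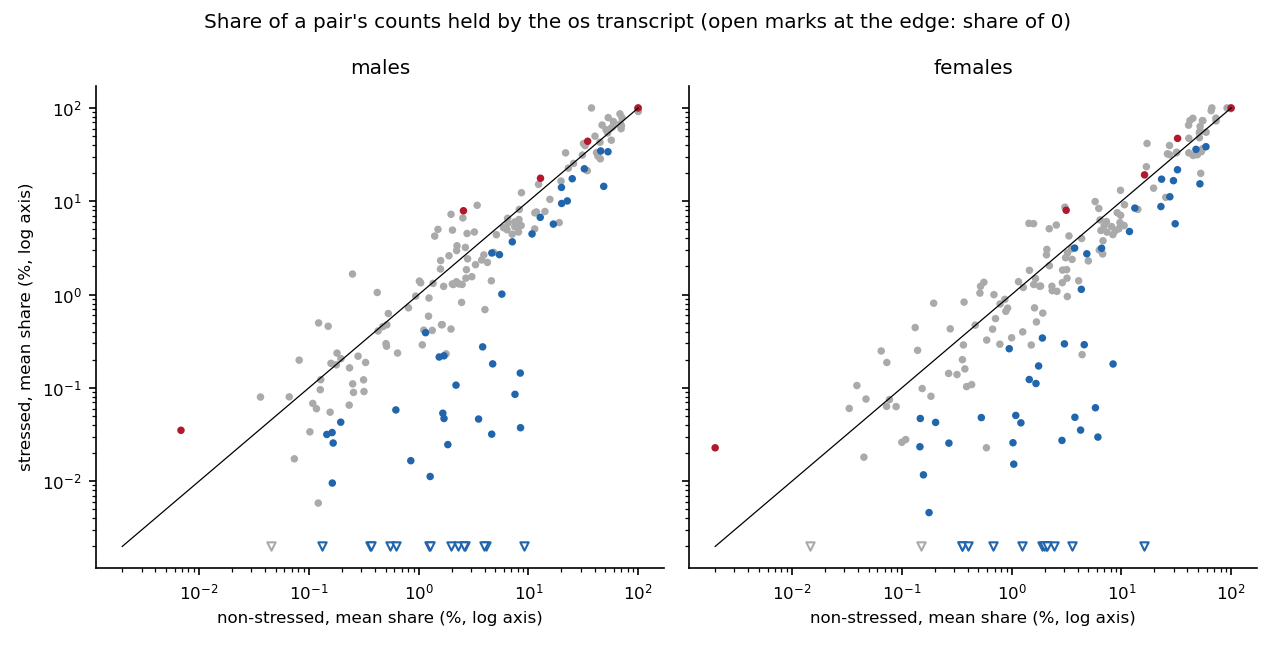
Mean share of a pair's counts held by the os transcript (%, log axes) in non-stressed (horizontal) and stressed libraries (vertical), for males and females; blue marks os transcripts that fell in both sexes, red those that rose in both, grey the others, and the line is equality. Pairs far below the line had shares of 0.132% to 15.9% in the non-stressed groups, and the pairs at the lower edge had no os count under stress.

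Falls were most frequent, among the 3 classes made by the place of the exons, where all exonic bases lie within the span of the sense gene. Of the 59 os transcripts whose exonic bases all lie within the span of the sense gene, 28 fell in each sex, 47.5%, with medians of -1.59 in males and -1.24 in females on the log2 scale. Of the 90 with some exonic bases in that span 20 fell in males and 25 in females (medians -0.19 and -0.31), and of the 40 with none 9 and 11 fell (medians -0.38 and -0.39). Os transcripts that start within 5 kb of the sense start without overlap fell in 2 of 26 in males and in 5 of 26 in females. Yet of the 12 that neither overlap nor start so near, 7 fell in males and 6 in females, 58.3% and 50%, with medians of -0.67 and -0.56, a larger share than the 31.8% and 35.1% of the 151 that overlap. By exonic bases shared with the sense gene, 22.7% of the 66 with none fell in each sex. Of the 47 with up to 10% shared, 31.9% fell in males and 38.3% in females, of the 42 with over 10% to 30%, 35.7% and 38.1%, and of the 34 with over 30%, 35.3% and 44.1%. The medians had no such order (-0.58, -0.43, -0.59 and -0.29 in males and -0.48, -0.31, -0.55 and -0.65 in females), and the Spearman correlation of the shared percentage with the mean change was -0.02 over 189 pairs. None of these classes was compared by a test.

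**Figure D5:**
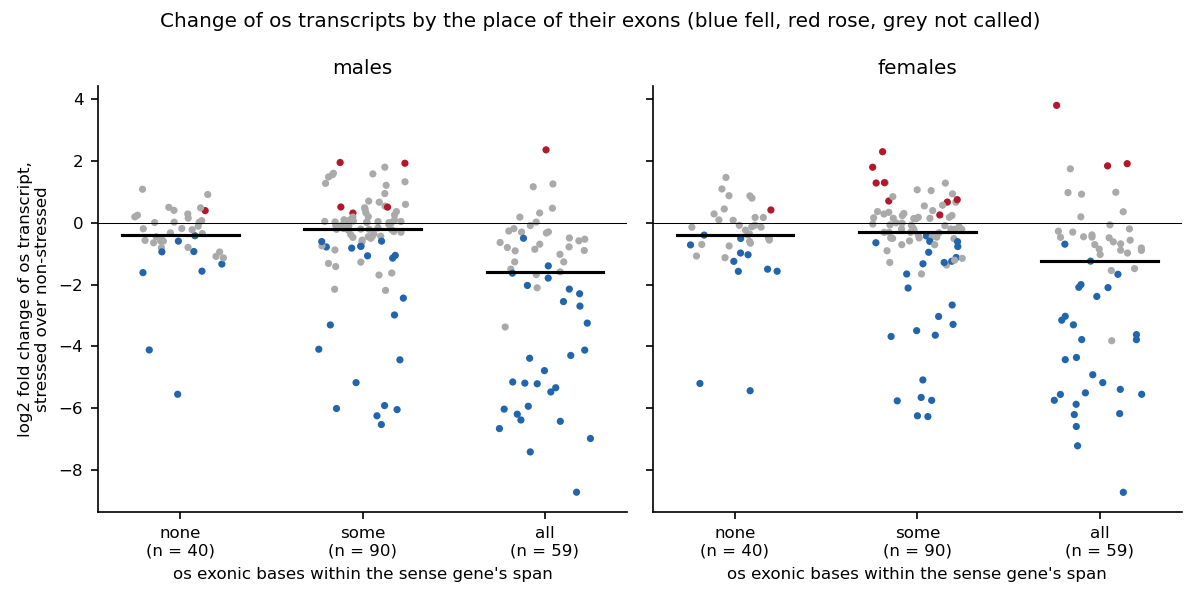
Log2 fold change under stress of each os transcript by the part of its exonic bases within the span of its sense gene (none, some, all), in males and females; bars are medians. The medians for all are -1.59 and -1.24, below those for none at -0.38 and -0.39.

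Falls also went with the level of the sense gene. The 151 overlapping os transcripts were split into 3 parts of like size by the mean FPKM of the sense gene, at 3.23 and 10.2. In males 4 of 50 fell in the lowest part, 20 of 50 in the middle and 24 of 51 in the highest, with medians of 0.03, -0.76 and -1.26. In females the counts were 5, 23 and 25, with medians of -0.20, -0.63 and -1.24. Rises numbered 2, 2 and 2 in males and 7, 2 and 2 in females, so rises outnumbered falls in the lowest part in females. As shares, 8%, 40% and 47.1% fell in males, where 16.7% of all genes fell. In females 10%, 46% and 49% fell, where 21.3% of all genes fell. These splits were made with the changes known and were not tested.

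Other antisense genes gave like counts. Of 1260 other genes that GENCODE M21 calls antisense, 30.1% fell in males and 31.3% in females, with medians of -0.53 and -0.49, near the values of the os-named genes. Of 1474 other lincRNA genes 13.7% and 15.4% fell, and of 16597 other protein-coding genes 15.3% and 21.2%. A list of named noncoding transcripts, 9 of them tested, mixed antisense ones with others, such as transcripts named as overlapping a gene. Their strands were not checked. Of the 9, 3 fell and 1 rose in males, and 2 fell and 3 rose in females. Zfas1 fell by 0.50 and 0.83 and Pantr1 by 0.59 and 0.81, while Peg13 rose by 0.42 and 0.54. Among 16 other long noncoding RNAs 4 rose and 2 fell in each sex, 25% and 12.5%, with medians of 0.09 and -0.01. Over all genes 15.6% rose and 16.7% fell in males, and 18.4% rose and 21.3% fell in females. Both lists are small, and their difference from all genes was not tested. Malat1 rose by 0.52 and 0.67 and Meg3 by 0.45 and 0.51, and Gas5 fell by 0.47 and 0.73 in males and females.

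Measures of the libraries that moved with the condition are given beside these falls. The mitochondrial gene mt-Nd6, which lies on the strand opposite to the other mitochondrial protein genes, had 1373 to 2018 CPM in non-stressed males and 1097 to 2334 in non-stressed females, against 85.2 to 106 and 71.2 to 107 CPM in stressed males and females. Its neighbour mt-Nd5 on the other strand had 5411 to 6232, 2025 to 6059, 5372 to 6207 and 5400 to 6190 CPM in the same order of groups. Genes under 1 kb of exonic length held 3.29% ± 0.246 and 3.45% ± 0.756 of counts in the non-stressed males and females and 2.01% ± 0.0797 and 2.03% ± 0.0756 in the stressed ones (SD, n = 4 each), and genes over 6 kb held 36.3% and 35.6% against 43.8% and 43.7%. By length, os transcripts and all genes fell as follows: under 1 kb, 27.3% against 23.5% in males and 32.7% against 27.5% in females, for 1 to 3 kb, 34.4% against 25.4% in males and 40% against 31.9% in females, and over 3 kb, 23.9% against 9.56% and 23.9% against 13.1%. With the length trend removed 48 fell and 9 rose in males, where 13.3% of all genes fell and 11.1% rose, and 54 fell and 15 rose in females, where 17.7% fell and 13.6% rose. Without a stated use of the strand, reads of an os transcript and its sense gene may not have been told apart where they overlap. The part of what moved mt-Nd6 in the fall of the os transcripts was not tested.

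No os transcript passed for sex in the non-stressed groups (0.0337% of all genes did), in the stressed groups (0.0295% of all genes) or for the interaction, which compares the stress effect between sexes (0% of all genes). Before adjustment 16, 3 and 4 of the 196 had an edgeR p under 0.05, where 1644, 281 and 639 of all 23769 genes did, and DESeq2 called 0 of the members in each. Os transcripts called in a single sex, such as Phtf1os, which rose in females by 1.30 (edgeR adjusted p = 0.000821) and was at 0.49 in males (adjusted p = 0.149), are therefore not shown to differ between the sexes.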

How the data were processed

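RNA-seq libraries of hippocampus were made from 1 ug of total RNA with a VAHTS Universal V8 kit, per the labels' protocols. HISAT2 2.0.1, HTSeq 0.6.1 and the build GRCm39 are named in the submitters' processing notes; the strand setting and annotation release are not given in the sources used here. The deposited table gives counts as whole numbers for each gene in each library, with the FPKM the authors made from them (counts per kb of exonic length and 1e+06 counts); recomputing FPKM from the counts differed by at most 0.00500. The exonic length was taken as deposited.

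Genes with at least 20 counts over the 16 libraries (23769) were tested by quasi-likelihood in edgeR 4.0.16 (R 4.3.3), with TMM factors and 1 mean per group over all libraries, and with Benjamini-Hochberg adjustment over all of them and a threshold of 0.05. Contrasts were stressed minus non-stressed within each sex, females minus males within each condition, and their interaction. DESeq2 1.42.0 and limma 3.58.1 on log2(FPKM + 0.1) or log2(FPKM + 1) were alternatives, with other scalings, filters and left-out libraries. The fit was tested on simulated counts with known changes. Errors of log2 fold changes are SE, those of CPM (of the library total) and shares SD, n = 4.

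The sense gene is the symbol without os and its number, or an older symbol on the opposite strand within 5 kb. Exons and biotypes came from GENCODE M21 (GRCm38) by Ensembl identifier (100% of members matched), never mixing coordinates. Members and lists were chosen with earlier results of these data known. The text names, at a mean of at least 0.5 CPM, up to 8 largest rises and 8 largest falls called in both sexes, the 6 most abundant members, any member called for sex, os transcripts beside brain regulators, the 3 symbols on each side of the count limit, and sense genes. Other os transcripts were named with their values known, also where this is not said beside them. A gene that the rule names is not reported here. Same-numbered libraries correlated between -0.355 and 0.290 in their deviations from group means, and the main fit did not pair samples by number. These correlations cannot settle whether the numbers pair the samples, since libraries may share a preparation without a strong correlation. No pair of replicates agreed within counting error (chi-square per degree of freedom at least 2.96), and each library was counted once. This does not show whether the pools came from separate animals.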

Additional observations from a re-analysis of the deposited data

Results flagged for a closer look

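Among the named os transcripts and other named members, 104 groups of 4 libraries were looked at for a library far from the other 3 of its group (a gap over Dixon's 95% limit), and 7 were found. For normally spread values chance flags about 1 in 20 groups, a rate that does not hold for counts at or near 0. A group with 3 libraries at 0 and 1 above 0 is always flagged, however small its count. Zfp85os had 3.48 CPM in non-stressed female library 3, where the other 3 had 2.21 to 2.35 CPM. Atcayos had 2.31 CPM in non-stressed male library 2, below the others at 3.64 to 3.77 CPM. Micos13 had 28.2 CPM in stressed female library 1, below the others at 31.3 to 31.9 CPM. In the remaining 4 a library with 1 or 2 counts stood beside 3 with none: Alkbh3os1 had 0.0520 CPM in stressed male library 2 and 0.0350 CPM in stressed female library 3, and Prkag2os2 had 0.0520 CPM in stressed male library 2 and 0.0767 CPM in stressed female library 2.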

How the results depend on the processing

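The count of members called under stress stayed within 1.5 times its value in all settings run: 57 to 76 in males and 67 to 79 in females when each library was left out in turn, 67 and 78 with DESeq2, 71 and 76 with limma on log2(FPKM + 0.1), 57 and 69 with the length trend removed, and 48 and 59 of the 102 members that passed an FPKM filter. The number of named members called in both sexes, 14, was 12 to 16. Over all genes, leaving out 1 library gave 6395 to 9417 calls in males and 7749 to 10711 in females; with female libraries 1 and 4 of the non-stressed group both left out, females had 6084 calls against 9441. With the replicate number as a replicate block 63 members were called in males and 76 in females; the numbers are not known to pair the samples. No member was called for sex or interaction in any setting run. Of the 36 large falls 33 to 36 were called in each sex when single libraries were left out, and 36 without both non-stressed female libraries 1 and 4. The smallest fall among them, -2.03 in males and -2.002 in females, came under 4-fold in some settings: -1.28 in females without non-stressed female library 3 and -1.51 in males without stressed male library 3. In limma on log2(FPKM + 0.1) it was -0.44 in males and -0.49 in females, with 33 and 31 of the 36 called, and on log2(FPKM + 1), which understates changes of low genes most, -0.056 and -0.068, with 29 and 30 called; 34 and 36 were called with the length trend removed. The median pair share depends on its unit: 2.93% of counts in non-stressed and 1.31% in stressed libraries became 10.3% and 4.66% of FPKM, and leaving out single libraries gave 2.72% to 2.98% and 1.30% to 1.39%. Of the single changes, those that turned sign lay near 0 in most cases. With the length trend removed these were Cdr1os (-0.22 in males, -0.28 in females), Selenos (0.031 in males), Cep83os (-0.12 and -0.14), Six3os1 (-0.26 in males) and Emx2os (-0.022 in males). Leaving out single libraries took the male change of Six3os1 from -0.088 to 0.42, of Emx2os from -0.041 to 0.14, of Pax6os1 from -0.78 to 0.014 and of Otx2os1 from -0.10 to 0.34, and the female change of Vax2os from -0.24 to 0.57. Leaving out both female libraries 1 and 4 of the non-stressed group gave a female change of -0.014 for Arhgap33os. The cause was not tested. Members with few counts limit what the depth can show.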
